A study of Mus musculus with 12 samples.

Results

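Genes for chromatin regulators and high mobility group (HMG) proteins were followed over 5 pieces of the mouse cerebral cortex and the whole hemisphere at embryonic day E16.5. They were taken by name: every probe set of the array whose annotated gene symbol begins with Hdac, Smarc, Dnmt, Cbx, Hmga, Hmgb, Hmgn, Kdm, Ezh or Chd with a digit. The names match 58 of 12488 probe sets. Of these, 54 carry exactly 1 symbol and stand for 42 genes, and 4 carry several symbols, with Hmgb1, Hmgn2 and Cbx3 among them, and were set aside. The arrays were Affymetrix oligonucleotide arrays (U74Av2 per the platform annotation), with 2 arrays for each of 6 groups: ventral, medial, dorsal, rostral and occipital cortex, and the cortical hemisphere, all embryonic tissue with no treatment named. Arrays 1 and 2 of a group came from separate dissections. Strain, sex and number of animals are not given in the sources used here. The protocol text names a lateral piece in place of a rostral one, and groups were taken from the titles.

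Chromatin is DNA wrapped on histones, and these families change how tightly it is packed and which genes can be read. HMG proteins bend DNA or bind the nucleosome, histone deacetylases (Hdac) and lysine demethylases (Kdm) remove marks from histones, Ezh and Cbx proteins write and read repressive marks, Dnmt enzymes methylate DNA, and Smarc and Chd proteins belong to machines that move nucleosomes by hydrolysing ATP. In the embryonic cortex, dividing progenitors line the ventricle and their daughters become neurons. Some of these proteins are known from dividing cells in general, and others are made in progenitors and neurons alike.

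A value on these arrays is an average difference, the mean excess of the perfect-match over the mismatch probes of a probe set. It is linear, has no unit and can fall below 0. Values under a floor of 693.5, which the negative values set, were raised to it before log2 was taken. A probe set was tested when it passed 2 times this floor on at least 2 of the 12 arrays, which held for 39 of the 54 member probe sets (33 of 42 genes) and for 5832 probe sets in all. The 15 that did not pass this filter were those of Hmga2, Hmgb4, Cbx1 with both probe sets, Cbx7, Chd1l, Chd7, Kdm1a, Kdm5a and Kdm5d, and further probe sets of Dnmt1, Dnmt3a, Smarca4 and, with 2, Smarcd2. Nothing is said of these 9 genes, since their values lay near or below the floor.

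To ask which members follow proliferation, each array was given a proliferation index. The index is the mean log2 level, centred on the 12 arrays, of 52 genes of DNA replication (22) and of the G2 and M phases (30), none of them a member. Cdk1, the kinase that drives entry into mitosis, shows its range: it read 1074 and 1197 in the ventral arrays, against 7510 and 6115 in the medial arrays. The index was -0.80 and -0.70 in the ventral arrays, 0.53 and 0.45 in the medial, 0.04 and 0.01 in the dorsal, 0.04 and 0.25 in the rostral, 0.28 and -0.09 in the occipital, and 0.09 and -0.10 in the hemisphere arrays. The ventral arrays thus lay 0.61 below the next array, and the medial arrays lay highest. The member's slope on this index, from 1 limma fit across all probe sets, tells how many log2 units it moves for each log2 unit of the index. The index genes themselves average a slope of 1 by construction. Single index genes ran from -0.51 to 2.05, with 51 of the 52 positive.

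Several facts about the arrays bear on all results. Each array passed 2 times the floor on 39.1% to 41.7% of probe sets. Only the 2 ventral arrays and dorsal array 2 had their nearest array in their own group. Among those that did not pair by label, rostral array 2 and occipital array 1 were each other's nearest array (r = 0.963 across probe sets). Rostral minus occipital on the index was negative in arrays 1 and positive in arrays 2, so results were also computed without these 4 arrays. Neuron markers moved against the index. All 9 listed (synaptic, cytoskeletal and other neuronal genes) were detected, their summed value was 172443 and 174998 in the ventral arrays, against 101512 to 144633 in the other 4 regions, 7 of 9 were higher in ventral cortex and 6 fell with the index. The 6 markers of the ganglionic eminence and GABAergic neurons summed to 57838 and 60542 in the ventral arrays, against 15622 to 58762 in the other regions, and 3 were higher in ventral cortex. Of 4 cortical markers, summing to 26488 and 28059 against 26618 to 45422, 2 were lower there. No tested marker of choroid plexus, blood, endothelium, microglia or meninges passed in the ventral comparison or on the index. The part of neuronal and GABAergic cells in the results below was not tested. In bulk tissue, fewer cells of a type and less RNA per cell cannot be told apart.

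Over the 12 arrays, 6 of the 39 tested member probe sets rose with the proliferation index: Hmgb2, Hdac1, Cbx2 (1 of 2 probe sets), Ezh2, Hmgn5 and Kdm3a. That is 15.4% of the members tested, beside 6.39% of all 5776 probe sets tested on the index. Another 3 (7.69% of the members tested) fell, both probe sets of Cbx6 and that of Ezh1, beside 5.61% of all. The other 30 member probe sets did not pass in either direction. The median slope of the tested members was 0.16, beside 0.02 over all tested, and 25 of 39 slopes (64.1%) were positive, beside 51.9% over all tested. Most members thus had no detected relation with the index. The share that fell was near that of all probe sets tested, so no trend of the members is read from it. The plot of slopes shows this order, and the plot of centred levels shows it array by array.

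**Figure D1:**
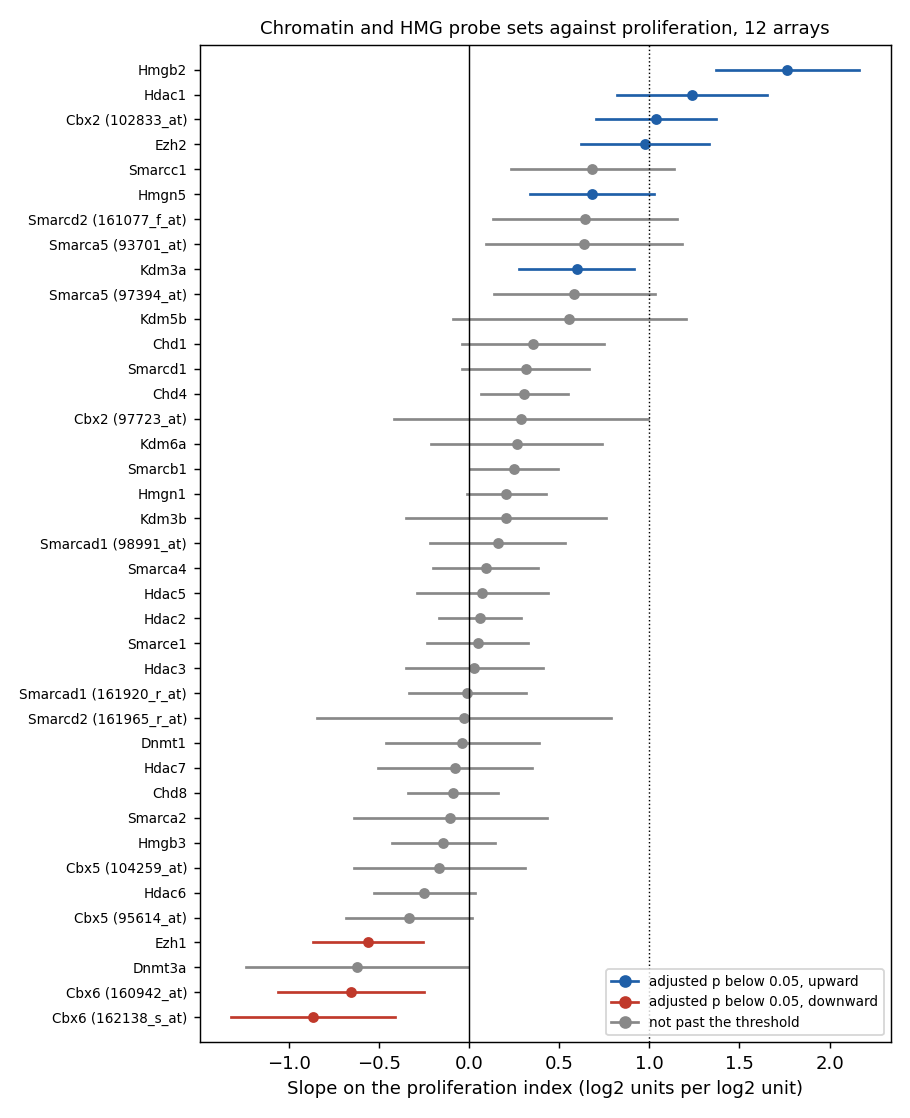
Slope of each tested member probe set on the proliferation index (log2 units per log2 unit, points) with its 95% interval (lines), over 12 arrays, ordered from high to low. The dotted line at 1 is the mean slope of the index genes: Hmgb2 lies to its right at 1.77, and Ezh1 and Cbx6 lie on the negative side.

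**Figure D2:**
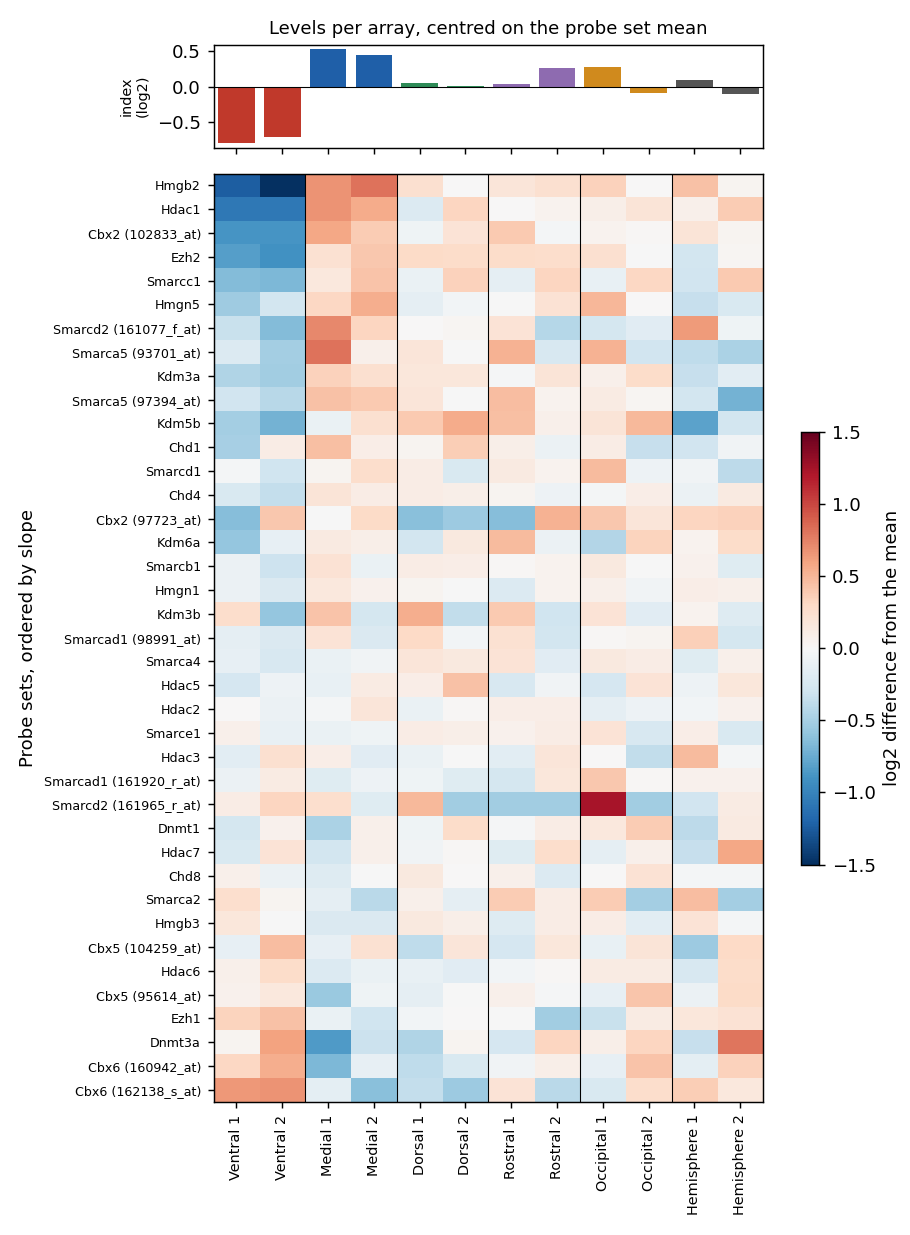
Log2 level of each tested member probe set (rows, in order of slope) on each of the 12 arrays (columns), as the difference from its own mean, with the proliferation index of each array as bars above. The ventral arrays are lowest in the rows of Hmgb2, Hdac1, Cbx2 (brighter set) and Ezh2 at the top, and highest in those of Ezh1 and Cbx6 (_s_at set) near the bottom.

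Among the HMG genes, Hmgb2 and Hmgn5 rose with the index while Hmgb3 and Hmgn1 did not pass. Hmgb2, a DNA-bending protein known from dividing cells, read 2556 and 1775 in the ventral arrays, against 9569 and 10533 in the medial, 7102 and 6022 in the dorsal, 6817 and 7079 in the rostral, 7646 and 6031 in the occipital and 8165 and 6203 in the hemisphere arrays. The ventral arrays held its 2 lowest values and the medial arrays its 2 highest, with no overlap with any other array. Its slope was 1.77 ± 0.18 (SE, 95% interval 1.37 to 2.16, adjusted p = 0.000216 in limma). This is above the index genes' mean of 1 and within their range. The value comes from a probe set whose suffix (_r_at) marks a set for which some probe selection rules were dropped. Hmgn5, an X-linked nucleosome-binding protein, read 2969.8 and 3553 in the ventral arrays, against 5361 and 6295 in the medial, 3931 and 4171 in the dorsal, 4284 and 5003 in the rostral, 6077 and 4321 in the occipital and 3385 and 3680.0 in the hemisphere arrays. Its 2 ventral values were below those of the other 4 regions, while hemisphere array 1 lay between them. The slope of Hmgn5 was 0.68 ± 0.16 (SE, adjusted p = 0.0149), and the call was lost without ventral array 1 (adjusted p = 0.0959) or without the rostral and occipital arrays (0.0596).

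Hmgb3, a close relative of Hmgb2 known from stem and progenitor cells of blood, read 42303 and 37383 in the ventral arrays, against 32266 and 32212.5 in the medial, 41607 and 39766 in the dorsal, 32791 and 40484 in the rostral, 40394 and 33545.5 in the occipital and 43295 and 36831 in the hemisphere arrays. The groups overlapped, except that both medial values were below every dorsal, ventral, rostral and occipital one. Its slope was -0.14, with a 95% interval from -0.43 to 0.14, so a slope like that of Hmgb2 lay far outside it. Hmgn1, another nucleosome-binding protein, read 56087.5 and 51385.5 in the ventral arrays, against 66791 and 62278 in the medial, 61472 and 59476 in the dorsal, 51794 and 61786 in the rostral, 62711 and 57376 in the occipital and 63975 and 63019.5 in the hemisphere arrays. Its slope of 0.21 had an interval from -0.01 to 0.43 (adjusted p = 0.220).

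Promoters of 5 members that passed are shown here, so that the rising HMG genes Hmgb2 and Hmgn5 and the rising Ezh2 can be set beside the falling Ezh1 and Cbx6. They come from RefSeq (GRCm38.p6) and run from 250 bases before to 50 after the annotated start. Letters searched on both strands were CCAAT (the box bound by NF-Y), TTTGAA (the CHR element of cell cycle genes) and the E2F forms TTTCGCG and TTTGGCG, and every match on either strand is in capitals. Hmgb2 lies at chr8:57511593-57511892, plus strand, Hmgn5 at chrX:109013331-109013630, minus strand, Ezh2 at chr6:47594981-47595280, minus strand, Ezh1 at chr11:101226414-101226713, minus strand and Cbx6 at chr15:79834284-79834583, minus strand.
Hmgb2: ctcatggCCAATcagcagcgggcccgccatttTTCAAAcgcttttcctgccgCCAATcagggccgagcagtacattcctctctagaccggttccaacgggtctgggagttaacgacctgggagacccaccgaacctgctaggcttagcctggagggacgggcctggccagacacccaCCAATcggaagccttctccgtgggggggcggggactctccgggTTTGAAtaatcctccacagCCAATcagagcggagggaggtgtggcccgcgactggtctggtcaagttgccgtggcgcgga
Hmgn5: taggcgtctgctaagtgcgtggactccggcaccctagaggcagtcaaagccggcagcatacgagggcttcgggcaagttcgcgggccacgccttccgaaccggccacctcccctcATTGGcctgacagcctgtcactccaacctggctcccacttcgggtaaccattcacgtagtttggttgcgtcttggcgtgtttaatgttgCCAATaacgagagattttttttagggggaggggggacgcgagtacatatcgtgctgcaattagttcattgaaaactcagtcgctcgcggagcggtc
Ezh2: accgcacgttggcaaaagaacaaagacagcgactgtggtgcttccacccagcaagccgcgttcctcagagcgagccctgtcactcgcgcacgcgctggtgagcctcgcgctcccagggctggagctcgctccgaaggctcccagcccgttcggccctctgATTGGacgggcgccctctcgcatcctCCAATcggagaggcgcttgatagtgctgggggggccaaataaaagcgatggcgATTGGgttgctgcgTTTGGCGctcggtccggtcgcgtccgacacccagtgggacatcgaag
Ezh1: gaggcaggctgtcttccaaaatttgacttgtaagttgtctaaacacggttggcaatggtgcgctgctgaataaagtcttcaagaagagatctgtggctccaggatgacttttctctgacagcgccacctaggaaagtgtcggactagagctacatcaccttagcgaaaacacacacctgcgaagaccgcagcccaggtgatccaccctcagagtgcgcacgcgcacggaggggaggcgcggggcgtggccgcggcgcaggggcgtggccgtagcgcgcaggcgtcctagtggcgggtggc
Cbx6: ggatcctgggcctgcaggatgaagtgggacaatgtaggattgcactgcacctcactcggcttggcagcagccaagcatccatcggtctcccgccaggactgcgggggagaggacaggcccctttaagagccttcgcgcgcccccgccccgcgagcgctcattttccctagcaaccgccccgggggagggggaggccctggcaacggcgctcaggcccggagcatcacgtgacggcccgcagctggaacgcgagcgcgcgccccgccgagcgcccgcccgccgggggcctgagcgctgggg

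The Hmgb2 window holds 4 CCAAT boxes and 2 CHR letters, the Ezh2 window 3 CCAAT boxes and 1 E2F form, and the Hmgn5 window 2 CCAAT boxes. Neither the Ezh1 nor the Cbx6 window holds any of the searched letters. Of the 6 rising genes, 4 (Hmgb2, Ezh2, Hmgn5 and Kdm3a) have a window in the table and 2 (Hdac1 and Cbx2) do not. Over the members with a window, CCAAT was found in 4 of 4 rising genes, 0 of 2 falling genes and 9 of 21 that did not pass, beside 41.1% of all 27025 genes in the table. TTTGAA was found in 1 of 4 rising, 0 of 2 falling and 3 of 21 other genes, beside 20.2% of all in the table. TTTGGCG was found in 1 of 4, 0 of 2 and 3 of 21, beside 1.77%. TTTCGCG was found in 0 of 4, 0 of 2 and 1 of 21, beside 0.969%. Dnmt1, which did not pass on the index, holds all of these letters in its windows, and Hmgb3 holds both CCAAT and TTTGAA. A gene with several windows had more chances of a match: Kdm3a and Dnmt1 have 3 each. These matches describe the letters only.

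Of the Ezh and Cbx genes, Ezh2 and Cbx2 (1 of 2 probe sets) rose with the index, Ezh1 and Cbx6 fell, and Cbx5 did not pass. Ezh2 and Ezh1 are alternative catalytic subunits of Polycomb repressive complex 2, which methylates histone H3, and Cbx2 and Cbx6 are alternative chromobox subunits of Polycomb repressive complex 1. Ezh2 read 3814 and 3608 in the ventral arrays, against 7954 and 8958 in the medial, 8261 and 8198 in the dorsal, 8159 and 8137 in the rostral, 8007 and 6733 in the occipital and 5613 and 6904 in the hemisphere arrays. Both ventral values were below all 10 others, and the medial range enclosed the dorsal and rostral values. Its slope was 0.98 ± 0.16 (SE, adjusted p = 0.00302).

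Ezh1 read 2149 and 2328 in the ventral arrays, against 1598 and 1396 in the medial, 1661 and 1719 in the dorsal, 1706 and 1195 in the rostral, 1363 and 1867 in the occipital and 1926 and 1984 in the hemisphere arrays. The order was turned: the 2 ventral values were the highest of the 12. Its slope was -0.56 ± 0.14 (SE, adjusted p = 0.0219). That call was lost without ventral array 1 (adjusted p = 0.0710), ventral array 2 (0.115), medial array 2 (0.0518), or the rostral and occipital arrays (0.0665). Within an array, the log2 ratio of Ezh2 to Ezh1 had a slope of 1.54 ± 0.24 (SE, permutation p = 0.00039, 0.00156 adjusted over 4 pairs). This permutation shuffled the 12 arrays freely, which takes the 2 arrays of a group as independent.

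Cbx2, on the brighter of its 2 probe sets, read 591 and 660.0 in the ventral arrays, against 1912.5 and 1676 in the medial, 1224 and 1479 in the dorsal, 1686 and 1260.5 in the rostral, 1333 and 1301 in the occipital and 1463 and 1323 in the hemisphere arrays. Both ventral values lay under the floor, so the size of the slope, 1.04 ± 0.15 (SE, adjusted p = 0.00179), depends on where the floor is put. With 2 times the floor it was 0.33 (adjusted p = 0.188), and only 5 of the 12 arrays passed that level. The dimmer probe set of Cbx2 read 323 and 1438 in the ventral arrays, against 1082 and 1325 in the medial, 699 and 741 in the dorsal, 688 and 1549 in the rostral, 1435 and 1225 in the occipital and 1358 and 1375.5 in the hemisphere arrays, with a slope of 0.29 (95% interval -0.42 to 0.99, adjusted p = 0.626). The 2 probe sets of Cbx2 thus differed in call, and the ventral arrays of the second were far apart.

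Cbx6, on the probe set whose suffix (_s_at) marks probes that can match several transcripts, read 9733 and 9856 in the ventral arrays, against 5575 and 4011 in the medial, 4827 and 4239 in the dorsal, 7113.5 and 4671 in the rostral, 5295.5 and 7414.5 in the occipital and 8009 and 6893 in the hemisphere arrays. The 2 ventral values were the highest of the 12. Its slope was -0.87 ± 0.21 (SE, adjusted p = 0.0178), with the call lost without ventral array 1 (adjusted p = 0.0998), ventral array 2 (0.0977), medial array 2 (0.0506), or the rostral and occipital arrays (0.0683). The other Cbx6 probe set, with the plain suffix (_at), read 7769 and 9101 in the ventral arrays, against 3904 and 5752 in the medial, 4809 and 5335 in the dorsal, 6008 and 6629 in the rostral, 5741.5 and 8437 in the occipital and 5668 and 7951 in the hemisphere arrays. On this set array 2 read above array 1 in all 6 groups, and occipital array 2 and hemisphere array 2 lay between the ventral values. Its slope had the same sign, at -0.65 ± 0.19 (SE, adjusted p = 0.0381). That call was lost without either ventral array (adjusted p = 0.0789 and 0.171), either medial array (0.132 and 0.0516), rostral array 1 (0.0552), occipital array 1 (0.0563), or all 4 rostral and occipital arrays (0.0606).

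Cbx5 encodes a heterochromatin protein of the HP1 type. Its slope was -0.33 on the brighter and -0.17 on the dimmer of its 2 probe sets, and neither passed (adjusted p = 0.209 and 0.679). On the brighter set it read 13181 and 14027 in the ventral arrays, against 8583 and 12079.5 in the medial, 11458.5 and 12600.1 in the dorsal, 13258 and 12419.8 in the rostral, 11558 and 16813 in the occipital and 11898 and 15419 in the hemisphere arrays. The medial arrays included the lowest value and the occipital arrays the highest, and the groups overlapped.

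Hdac1 was the only one of 6 tested deacetylase genes that passed on the index. Hdac1 and Hdac2 are class I deacetylases that share several corepressor complexes. Hdac1 read 311 and 675 in the ventral arrays, against 2329 and 2151 in the medial, 1271 and 1831 in the dorsal, 1471 and 1515 in the rostral, 1551 and 1665.5 in the occipital and 1536.5 and 1902 in the hemisphere arrays. Its 2 ventral values lay under the floor and its 2 medial values above all others. The slope was 1.24 ± 0.19 (SE, adjusted p = 0.00216), and 0.61 with 2 times the floor (adjusted p = 0.0708). Hdac2, by contrast, read 15259.7 and 14339.7 in the ventral arrays, against 14885 and 17263 in the medial, 14249.8 and 15397.5 in the dorsal, 16327 and 16384 in the rostral, 13818 and 14437 in the occipital and 14859 and 15950.1 in the hemisphere arrays, all 12 within a narrow band. It had a slope of 0.06 with a 95% interval from -0.17 to 0.29. The ratio of Hdac1 to Hdac2 within an array had a slope of 1.18 ± 0.19 (SE, permutation p = 0.00126, 0.00252 adjusted over 4 pairs).

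The other deacetylases tested had slopes from -0.25 (Hdac6, a mostly cytoplasmic tubulin deacetylase) to 0.07 (Hdac5). Hdac5, a class II deacetylase of neurons and muscle, read 9870.3 and 11212 in the ventral arrays, against 10878 and 12882 in the medial, 12601 and 16011 in the dorsal, 10014 and 11404 in the rostral, 9897 and 13637 in the occipital and 11208 and 13269 in the hemisphere arrays. The dorsal arrays held its highest value, and no region stood apart. Hdac3, the catalytic subunit of the NCoR and SMRT corepressors, and Hdac7 had slopes of 0.03 and -0.08.

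Of 4 demethylase genes tested, Kdm3a rose with the index. Kdm3a removes methyl groups from histone H3 at a lysine marked in silent chromatin. It read 3650.4 and 3493 in the ventral arrays, against 6354 and 5934 in the medial, 5649 and 5648 in the dorsal, 4932 and 5739.8 in the rostral, 5293 and 6066 in the occipital and 3954 and 4475 in the hemisphere arrays. The ventral values were the lowest of the 12, and the hemisphere values came next. Its slope was 0.60 ± 0.15 (SE, adjusted p = 0.0201), and the call was lost without ventral array 1 (adjusted p = 0.105), ventral array 2 (0.124) or medial array 1 (0.0573).

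Kdm5b, which removes methyl groups from a histone mark of active promoters, read 1051 and 914 in the ventral arrays, against 1397 and 1764 in the medial, 1952 and 2188 in the dorsal, 2039 and 1577 in the rostral, 1707 and 2087 in the occipital and 858 and 1234 in the hemisphere arrays. Its lowest values came from ventral cortex and from hemisphere array 1, and its medial values were not high. Its slope of 0.56 did not pass (95% interval -0.09 to 1.20, adjusted p = 0.263). Kdm6a, a demethylase of the Polycomb mark, and Kdm3b had slopes of 0.26 and 0.20 and did not pass either.

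None of the 15 Smarc and Chd probe sets tested (12 genes) passed on the index by limma, while 6 had an unadjusted p under 0.05, beside 26.3% of all tested. Their slopes ran from -0.11 to 0.68 with a median of 0.25. Smarcc1, a core subunit of the BAF remodelling complex, came closest: it read 5677 and 5556 in the ventral arrays, against 9874.5 and 11919.7 in the medial, 8276.5 and 11305 in the dorsal, 8061 and 11123 in the rostral, 8237 and 11037 in the occipital and 7266 and 11705 in the hemisphere arrays. Both ventral values were the lowest of the 12. It had a slope of 0.68 ± 0.21 (SE, adjusted p = 0.0503), and its other 5 groups each held 1 high and 1 low array, with array 2 above array 1 in all 5. With the replicate number as a block in the limma fit, Smarcc1 passed (adjusted p = 0.00620). Smarcc1 passed with a lower floor (adjusted p = 0.0453), a filter on 6 arrays (0.0327), an arcsinh scale (0.0488), and trended and robust variances (0.0354). It also passed with an index of S phase genes alone (0.0262) and over 6 group means (0.0177). The same held without the hemisphere arrays (0.0262) or any 1 occipital or hemisphere array (0.0312 to 0.0413). It did not pass without the medial arrays (adjusted p = 0.166, limma) or without the rostral and occipital arrays (0.0698). Without the ventral arrays its slope was only 0.06 (adjusted p = 0.974, limma) and its r with the index 0.0524. Without the medial arrays as well, r was -0.350.

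Smarca4 and Smarca2 are alternative ATPases of that complex. Smarca4 read 17206 and 15872 in the ventral arrays, against 17398 and 17956 in the medial, 21167 and 20601 in the dorsal, 21602 and 16618 in the rostral, 20678 and 20157 in the occipital and 16472 and 19735 in the hemisphere arrays, with a slope of 0.09 (95% interval -0.20 to 0.38). The dorsal values were high, and the ventral and medial values lay at the low end with rostral array 2 and hemisphere array 1. The slope of the ratio of Smarca4 to Smarca2 was 0.20, with a 95% interval from -0.48 to 0.87 (permutation p = 0.531). Smarcb1, another core subunit, read 12848 and 11003 in the ventral arrays, against 15883 and 12752 in the medial, 14759.5 and 14672 in the dorsal, 13843 and 14169 in the rostral, 15178 and 13644 in the occipital and 14303 and 12120.2 in the hemisphere arrays. The ventral and medial ranges overlapped, and its slope was 0.25 with an interval from 0.01 to 0.49 (adjusted p = 0.179).

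Chd4, the ATPase of the NuRD deacetylase complex, read 25503 and 23261 in the ventral arrays, against 34311 and 32419 in the medial, 32294.5 and 31798 in the dorsal, 30699 and 28375 in the rostral, 29327 and 32026 in the occipital and 28155 and 32697 in the hemisphere arrays. Its ventral values were the lowest of the 12, and its medial values lay above those of the other 4 regions by a small margin. The slope of 0.31 (95% interval 0.06 to 0.55) did not pass (adjusted p = 0.0987), except with trended and robust variances (0.0476). Its suffix (_f_at) marks probes that can match a gene family. Smarca5, the ATPase of ISWI complexes, had slopes of 0.64 and 0.58 on its 2 probe sets, with adjusted p of 0.125 and 0.0868. Without the hemisphere arrays the brighter Smarca5 set passed (adjusted p = 0.0186), as it did without hemisphere array 2 (0.0408). The probe sets of Smarcd2 and of Smarcad1 differed in sign. Smarcd2 had slopes of 0.64 on the _f_at set and -0.03 on an _r_at set, and each passed 2 times the floor on only 2 arrays. The _f_at set passed on the index without rostral array 2 (adjusted p = 0.0384) and without the rostral and occipital arrays (0.0299). Smarcad1 had slopes of 0.16 on the _at set and -0.01 on the _r_at set. The BAF subunits Smarcd1 and Smarce1 had slopes of 0.31 and 0.05, and the remodelling ATPases Chd1 and Chd8 had slopes of 0.35 and -0.09.

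Neither DNA methyltransferase tested passed on the index. Dnmt1, the maintenance enzyme that copies methylation at replication forks, read 5453 and 6848 in the ventral arrays, against 4712 and 6854 in the medial, 6245 and 7915 in the dorsal, 6453.5 and 7042 in the rostral, 7295 and 8486 in the occipital and 4958 and 7164 in the hemisphere arrays. Both occipital values lay above every ventral, medial, rostral and hemisphere value. Its slope was -0.04 with a 95% interval from -0.46 to 0.39, which leaves out the index genes' mean of 1. Several single index genes had slopes inside that interval, such as Slbp (0.15), Orc6 (0.20) and Cdt1 (0.31). Dnmt3a, which sets new methylation, read 1527.5 and 2252 in the ventral arrays, against 824.5 and 1189 in the medial, 1082.5 and 1520.5 in the dorsal, 1247 and 1856 in the rostral, 1579 and 1852 in the occipital and 1172 and 2587 in the hemisphere arrays. Its slope was -0.62 (95% interval -1.24 to -0.004, adjusted p = 0.187). For Dnmt1 and Dnmt3a alike, array 2 read above array 1 in all 6 groups. Neither passed on the index with the replicate number as a block. The ratio of Dnmt1 to Dnmt3a had a slope of 0.58 ± 0.22 (SE, permutation p = 0.0228, 0.0304 adjusted over 4 pairs). It missed the threshold without ventral array 2, at 0.51.

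**Figure D3:**
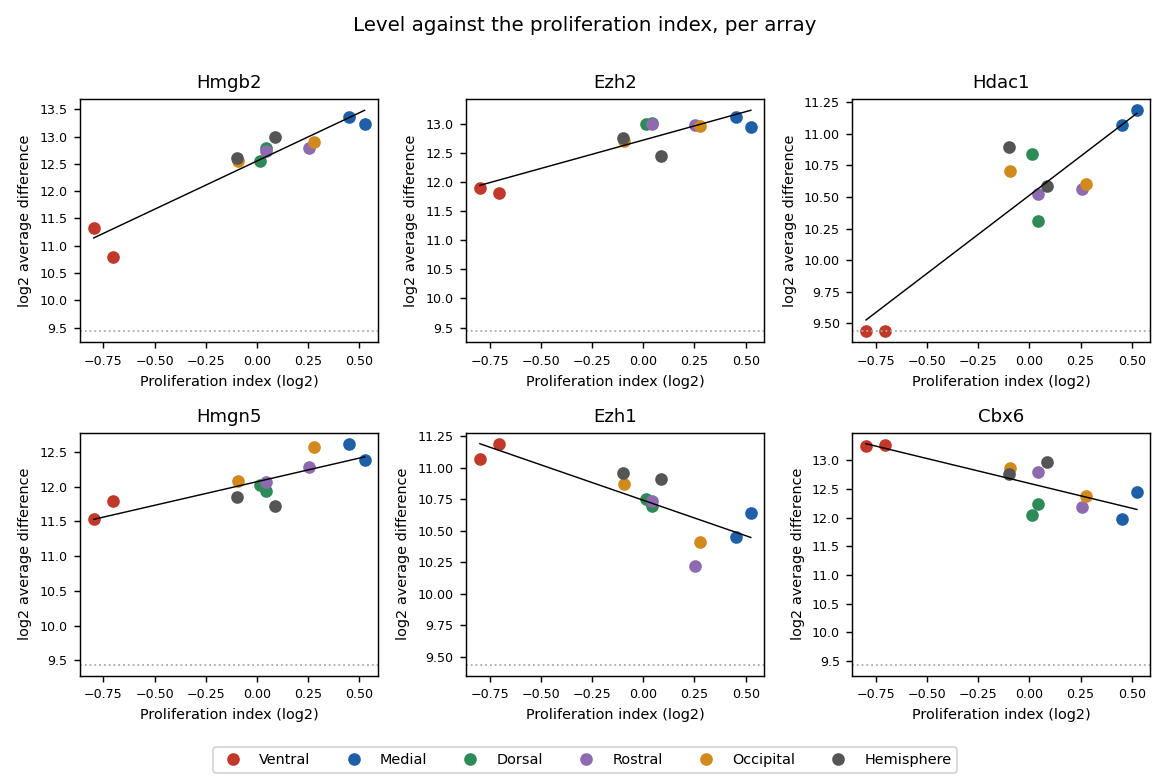
Log2 average difference of 6 members (1 panel each, Cbx6 on its _s_at set) against the proliferation index of each array, with 12 arrays coloured by group, the fitted line, and the floor as a dotted line. Hmgb2, Ezh2, Hdac1 and Hmgn5 slope up and Ezh1 and Cbx6 slope down, with the 2 ventral arrays at the left end of every panel and the Hdac1 ventral points on the floor.

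How much of this rests on ventral cortex was asked by leaving its 2 arrays out. Over the other 10 arrays no member and no probe set at all (0% of 5774) passed on the index by limma, and 8 members had an unadjusted p under 0.05, beside 9.61% of all tested. Over these 10 arrays Hmgb2 had r = 0.887 with the index (permutation p = 0.00101, adjusted p = 0.216) and rho = 0.879 (permutation p = 0.00178, adjusted p = 0.257). Without the medial arrays as well, the 2 farthest from the median index, its r was 0.689. For Hmgn5 r was 0.792 (permutation p = 0.00713, adjusted p = 0.332), rho was 0.673 (permutation p = 0.0391, adjusted p = 0.442), and r without the medial arrays was 0.699.

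For Ezh1, r over the 10 arrays was -0.672 (permutation p = 0.0341, adjusted p = 0.501), rho was -0.758 (permutation p = 0.0149, adjusted p = 0.378), and r without the medial arrays was -0.878. Hdac1 and Cbx2 (brighter set) had r of 0.511 and 0.588 over the 10 arrays (permutation p = 0.132 and 0.0731) and -0.419 and -0.121 without the medial arrays, so their relation rested on the ventral and medial arrays. For Ezh2 r was 0.469 (permutation p = 0.171) and for Kdm3a 0.450 (permutation p = 0.191). Without the medial arrays these fell to 0.329 and 0.0835. Cbx6 had r of -0.634 on the _at set and -0.501 on the _s_at set (permutation p = 0.0488 and 0.143), and -0.429 and -0.440 without the medial arrays. Of the members that did not pass on the index, the brighter Cbx5 set had the largest r in size, -0.796 over the 10 arrays. Its permutation p was 0.00322 (adjusted p = 0.241), and r without the medial arrays was -0.736. It is named here for that value. All p-values of r were adjusted over 5774 probe sets, and by Pearson or Spearman 0 of these passed. In the paralog pairs, the slope of Ezh2 over Ezh1 was 1.16 without the ventral arrays (permutation p = 0.0499), that of Hdac1 over Hdac2 was 0.54 (p = 0.172), that of Dnmt1 over Dnmt3a was 0.71 (p = 0.180) and that of Smarca4 over Smarca2 turned negative at -0.54 (p = 0.411), all by permutation. All 9 probe sets that passed had a slope of the same sign in the 6 arrays numbered 1 and in the 6 numbered 2. These 9 were picked for their slope over the same arrays, and each set of 6 holds a ventral and a medial array. The shared sign is therefore no separate support.

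Regions were also compared without the index. The ventral contrast shares its arrays with the slope and is not independent of it. In ventral cortex 6 members were lower than the mean of the other 4 regions, beside 5.54% of all 5832 probe sets, and 1 was higher, beside 4.25%. The 6 were Hmgb2, Hdac1, Cbx2 (brighter set), Ezh2, Kdm3a and Kdm5b, and the higher one was Cbx6 (_s_at set). Hmgb2 averaged 2165 ± 552 in ventral cortex (SD, n = 2) and 7600 ± 1629 in the other regions (SD, n = 8), a 3.50-fold lower level (log2 difference -1.81 ± 0.18 SE, adjusted p = 0.00106). Ezh2 averaged 3711 ± 146 against 8051 ± 616, 2.16-fold lower (adjusted p = 0.00195).

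Hdac1 was at least 2.44-fold lower and Cbx2 at least 2.11-fold lower, since both ventral arrays were under the floor (adjusted p = 0.00223 and 0.00349). Those 2 calls were lost with 2 times the floor (adjusted p = 0.203 and 0.517). Kdm5b averaged 982 ± 97.02 in ventral cortex and 1839 ± 273 in the other regions, 1.86-fold lower (adjusted p = 0.0195), although it did not pass on the index. Kdm3a was 1.59-fold lower (adjusted p = 0.0124) and Cbx6 1.86-fold higher (adjusted p = 0.0289). Without ventral array 1 the calls of Cbx2 (adjusted p = 0.0540), Kdm3a (0.111), Kdm5b (0.122) and Cbx6 (0.200) were lost, and without ventral array 2 those of Kdm3a (0.126), Kdm5b (0.178) and Cbx6 (0.184). Cbx6 also lost it without dorsal array 1 (0.0542) or 2 (0.0620).

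By position alone, both ventral values of 10 member probe sets lay below all 8 values of the other regions, beside 13.8% of all tested. Those 10 add Smarcc1, Hmgn5, Chd4 and Smarca5 (brighter set) to the 6 above. Both ventral values of 2 members, Ezh1 and Cbx6 (_s_at set), lay above all 8, beside 10.7%.

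In medial cortex, where the index was highest, Hmgb2 and Hdac1 were higher than the mean of the other 4 regions, beside 0.514% of all tested. Hmgb2 averaged 10051 ± 682 in medial cortex and 5628 ± 2216 in the other regions, 1.98-fold higher (adjusted p = 0.0437). Hdac1 averaged 2240 ± 126 against 1286 ± 524, 1.77-fold higher (adjusted p = 0.0484). Both calls were near the threshold and both were lost without any 1 array of the ventral, medial, dorsal, rostral or occipital group (adjusted p from 0.0586 to 0.369 for Hmgb2 and from 0.0595 to 0.322 for Hdac1). No member was lower in medial cortex, beside 0.754% of all tested, and 0 members had an unadjusted p under 0.05 in that direction by limma. The share of all tested at that unadjusted level was not computed. Both medial values of 4 members, Hmgb2, Hdac1, Chd4 and Smarcd2 (_f_at set), lay above all 8 of the other regions, beside 4.96%. That Smarcd2 set passed 2 times the floor only on medial array 1 (1785) and hemisphere array 1 (1689). It was thus tested partly because of a high medial value.

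Dorsal cortex, whose index was near 0, differed from the other 4 regions in no member by limma, beside 0.274% of all tested in either direction. At an unadjusted p under 0.05, 2 of the 39 members were higher and 1 lower there. The share of all tested at that level was not computed, so nothing is read from these counts. By the F test over the 5 regions, 4 members differed, beside 3.26% of all tested: Hmgb2 (F = 26.8, adjusted p = 0.00857), Hdac1 (19.2, 0.0175), Ezh2 (17.9, 0.0193) and Cbx2 on the brighter set (14.97, 0.0275). Without ventral array 1 or 2, 0 members passed the F test, without medial array 1 or 2, 1 member, and without dorsal array 1 or 2, 2 members. Without the rostral and occipital arrays, 5 members passed the F test and 7 the ventral contrast, beside 383 and 569 of all probe sets.

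The 30 member probe sets that did not pass on the index had slopes from -0.62 to 0.68. For 24 of them (80.0%) the whole 95% interval lay between -1 and 1, beside 81.4% of all probe sets that did not pass, so this share was near the background. For the other 6 (Smarcc1, Smarcd2 on the _f_at set, both of Smarca5, Kdm5b and Dnmt3a) the interval reached past 1 or -1. The plot of the non-passing members with the highest means shows 8 of them array by array.

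**Figure D4:**
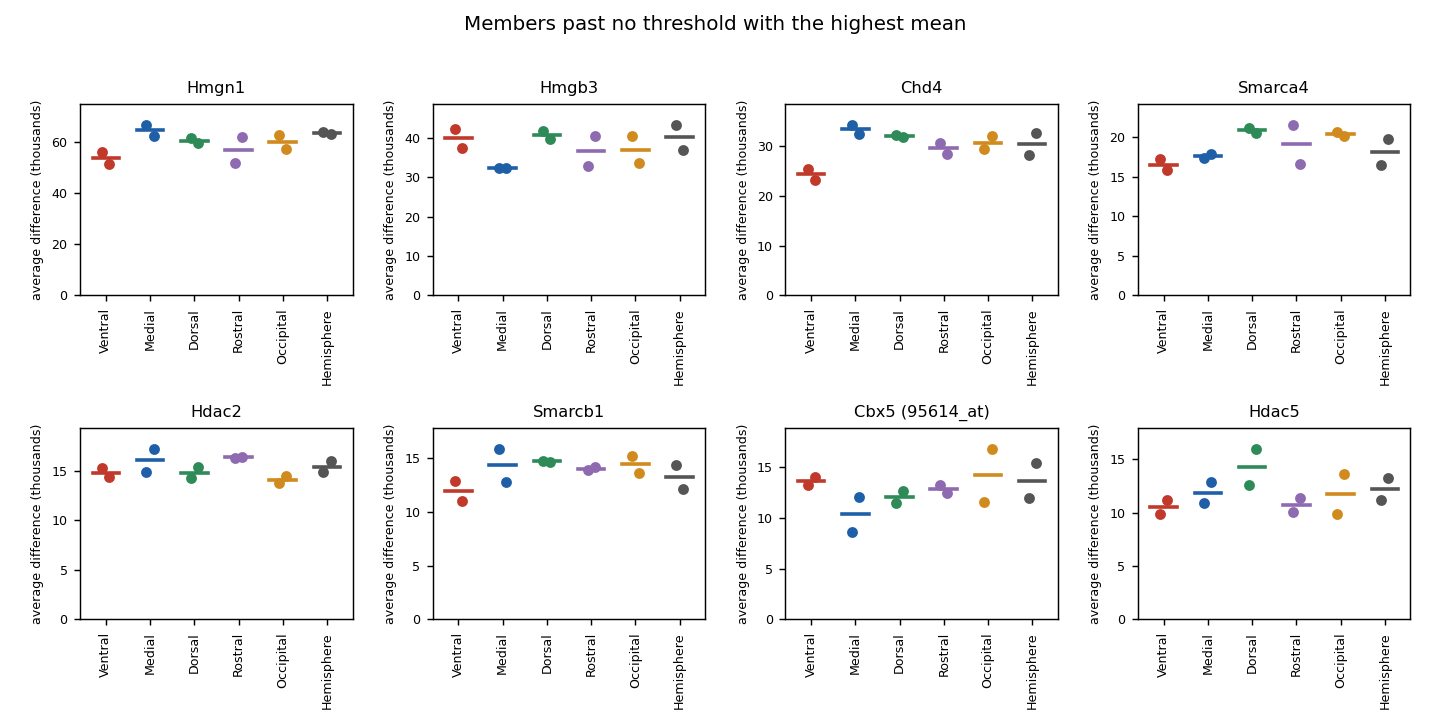
Average difference (divided as the axis label says, linear axis from 0) of the 8 members that did not pass on the proliferation index and had the highest mean, with 1 point per array and a line at the mean of the 2 arrays of each group. Hmgb3 is lowest in the medial group and Chd4 in the ventral group, and Hdac2 varies little over the 12 arrays.

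Other chromatin genes, listed apart from the name rule, give a setting for these counts. Of 117 such genes 81 had a probe set and 66 were tested, 1 probe set a gene. On the index 18 of the 66 (27.3%) rose and 2 fell, with a median slope of 0.27. The members' share above (15.4%) counts all their probe sets, so the units differ. By gene, 6 of 33 members rose. The steepest were Uhrf1, the partner that brings Dnmt1 to replicating DNA (1.38 ± 0.14 SE, adjusted p = 0.000216), Chaf1b of the chromatin assembly factor (1.16, 0.00300), Lbr, an inner nuclear membrane anchor of heterochromatin (1.13, 0.00133), and Sap30 of the Sin3 deacetylase complex (1.03, 0.000736). The 2 that fell were Nap1l2, a neuronal histone chaperone (-1.10, 0.00568), and Sirt3, a mitochondrial deacetylase (-0.63, 0.0315). Among Polycomb subunits on this list, chosen here after their values were seen, Phc2 (0.78, 0.0227), Pcgf2 (0.77, 0.0402) and Bmi1 (0.47, 0.0309) rose, and Eed, Suz12, Rnf2 and Phc1 had slopes from 0.11 to 0.49 and did not pass. In ventral cortex 14 of the 66 were lower and 1 was higher, beside 5.54% and 4.25% of all 5832 probe sets. Uhrf1 and Dnmt1, whose proteins act together, thus had slopes of 1.38 and -0.04 on the same arrays, and the difference between those slopes was not tested.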

How the data were processed

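RNA from 12 dissected samples, 2 per group, was purified as poly(A)+ RNA, labelled as cRNA and hybridised to 1 array each, which was scanned 2 times, per the labels' protocols. The deposited intensities are average differences per probe set, scaled by the authors so that the 2% trimmed mean of every array as deposited lies between 2501.6 and 2501.9. The labels' account of the analysis breaks off there, and the software is not given in the sources used here. Nothing was rescaled. The floor is the root mean square over every negative value deposited, and 66 control probe sets were left out of testing. Tests used R 4.3.3 with limma 3.58.1 (lmFit and eBayes), two-sided, with Benjamini-Hochberg adjustment over all tested probe sets and a threshold of 0.05. The slope fit has the index as its only covariate (10 residual and 3.07 prior degrees of freedom) and leaves the probe sets of the index genes out of counts and adjustment. The region fit has 1 mean per group (6 residual and 2.86 prior degrees of freedom), and each contrast takes a region's mean minus the plain average of the means of the other 4. Folds come from floored log2 means. A slope of a paralog ratio, r and rho were tested with 100000 permutations. Arrays were shuffled freely, without regard to group, so the 2 arrays of a group were taken as independent, as in the slope fit. Of 6 fixed paralog pairs 4 were run, since Hmgb1 and Cbx3 have no probe set of their own. Genes were named by platform symbol, and a RefSeq table changed 0 of 54 symbols. Text names every member that passed a test, the 8 with the highest mean that passed none on the index, both probe sets of a gene that differed, and the top of the list of other chromatin genes; remaining members are named to account for all. The scripts were tested on simulated data. Members, lists and tests were chosen with earlier results of these data known. The number of arrays limits the precision, and 2 arrays a group make single regions uncertain.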

Additional observations from a re-analysis of the deposited data

How the results depend on the processing

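Hmgn5, Kdm3a, Ezh1 and both Cbx6 probe sets passed on the index over all 12 arrays. None of them passed without the medial arrays or over 6 group means. Cbx6 on the _at set was also lost without the hemisphere arrays (adjusted p = 0.0509, limma) and with S phase genes alone (0.0627). The count of members that passed on the proliferation index (9) was 0 without the ventral arrays, 4 without the medial arrays and 5 over 6 group means. It was 0 in the arrays numbered 1 and 0 in those numbered 2, 2 alternatives added after seeing the data, in which 0 of all probe sets passed by limma. Leaving out 1 array at a time gave 4 to 11. Hmgb2, Hdac1, Cbx2 (brighter set) and Ezh2 passed in all 12 of these fits. A lower floor, no filter, a filter on 6 arrays, quantile normalization, an arcsinh scale, an index of S phase genes alone and 1 of G2 and M phase genes alone gave 9 or 10 members, 2 times the floor gave 7, trended and robust variances 11, and the arrays without rostral and occipital cortex 6. The ventral contrast (7) gave 3 to 9 without 1 array, the F test (4) gave 0 to 4, and 2 with 2 times the floor. The medial contrast (2) gave 0 to 2 without 1 array, and 1 with the lower floor, 2 times the floor, quantile normalization, the arcsinh scale, or trended and robust variances. No alternative gave a dorsal call among the members. With the replicate number as a block, members called were 10 on the index, 11 in ventral cortex, 5 by F and 3 in medial cortex. Smarcc1 passed on the index with the block (adjusted p = 0.00620). Deviations from the group means correlated from -0.06 (rostral and occipital) to 0.56 between same-numbered arrays of 2 groups, over 0.1 in 14 of 15 pairs of groups, and the nearest array of 7 of the 12 carried the same number. This is a hint from the data that arrays of 1 number deviate together. The 1 pair that did not was rostral and occipital, where rostral array 2 and occipital array 1 were each other's nearest array. The labels do not say what a number marks across groups, and the main fits use no block. The counts depend on this choice: with the block 965 of 5776 probe sets passed on the index, against 693 without it. The Dnmt1 minus Dnmt3a slope difference was 0.34 with 2 times the floor, 0.71 without the ventral arrays, neither past the threshold, and 0.51 to 0.71 without 1 array. That of Hdac1 minus Hdac2 fell short of it at 0.54 without the ventral arrays. No member that passed on the index changed the sign of its slope under the alternatives run. Of those that did not pass, Hmgb3 (-0.14) had a slope of 0.00115 without the medial arrays, Smarca4 (0.09) -0.36 without the ventral arrays and -0.0146 to 0.150 without 1 array, Hdac5 (0.07) -0.41 without the ventral arrays and -0.0862 to 0.131 without 1 array, and Hdac2 (0.06) -0.0547 in the arrays numbered 1. The Smarca4 minus Smarca2 slope difference (0.20) was -0.54 without the ventral arrays. The cause of these changes was not tested. Values under the floor (Hdac1 and Cbx2 in ventral cortex) limit what can be said of size.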
